A study of Mus musculus with 4 samples.

Results

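The genes followed in these kidneys were Dao, Ddo, Hao2, Prodh, Prodh2, Aldh4a1, Miox, Acy1 and Aass, which encode enzymes that oxidise D-amino acids, 2-hydroxy acids, proline and hydroxyproline, and inositol, or that prepare acetylated amino acids and lysine for breakdown. They were chosen by name, with earlier results of these data known. All 9 had 1 row in each of the 4 tables, among 22761 gene names found in all 4. The study sequenced RNA of whole embryonic mouse kidneys, taken at E18.5 from a mixed strain. Mutant kidneys (Hnf4a c/c ; Six2GFPcre, 2 libraries) carried 2 conditional alleles of Hnf4a, and control kidneys (Hnf4a c/+ ; Six2GFPcre, 2 libraries) carried 1. Both groups carried Six2GFPcre, a Cre fused to green fluorescent protein and expressed from Six2 sequences in nephron progenitors, so recombination reaches the nephron tubules and podocytes that they form but not stroma, vessels or collecting duct. Control kidneys are therefore not intact, since their single conditional allele meets Cre in the same cells. Hnf4a, a nuclear receptor of the proximal tubule, was at 87.1 and 78.5 FPKM in mutant and 89.3 and 84.6 FPKM in control libraries; this value covers the whole gene, the removed part of the gene is unknown here, and so it does not check the genotype. Separate animals are not named in the labels. Each p-value from limma rests on the gene's scatter among the 4 libraries, drawn toward the scatter of genes at a similar level. Part of that scatter may be technical.

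The proximal tubule is the segment that takes back most filtered amino acids and inositol, and it holds a dense set of mitochondria and peroxisomes in which these compounds are oxidised. Dao and Ddo are peroxisomal flavin oxidases of neutral and acidic D-amino acids. Prodh starts the mitochondrial oxidation of proline and Prodh2 that of hydroxyproline, which is released when collagen is broken down; Aldh4a1 serves both routes at the following step. Miox opens the ring of myo-inositol and is known as an enzyme of the kidney cortex.

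FPKM, the authors' unit, is fragments scaled by transcript length and by the mapped fragments of the library, so levels can be compared between genes. Between 13552 and 13646 named genes per library were at 1 FPKM or more. The tables hold no read totals, and the depth is therefore unknown. Each value carries the authors' interval, which describes the estimate within 1 library and not the spread between kidneys. Defining genes of the proximal tubule were present, with Slc34a1, a phosphate carrier, at 45.3 and 39.7 FPKM in mutant and 119 and 93.8 FPKM in control libraries.

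Of the 9 genes, 7 were lower in both mutant libraries than in both control libraries, and the remaining 2, Ddo and Aass, overlapped between the groups. Among all 13287 genes tested, 17.1% were lower and 22.7% higher in this way. With limma on log2(FPKM + 1), 0 of the 9 genes passed an adjusted p under 0.05, against 0.158% of all genes (0.113% lower and 0.0452% higher; 21 genes in all, and 0 without control replicate 1 or without control replicate 2). At an unadjusted p under 0.05, 6 of the 9 were lower and 0 higher, namely Dao, Hao2, Prodh2, Aldh4a1, Miox and Acy1; the share of all genes was 4.57% lower and 2.67% higher. The median log2 change of the 9 was -0.45, against 0.02 for all genes tested. Their FPKM summed to 168 and 171 in mutant libraries and to 299 and 249 in control libraries. In whole kidneys, fewer cells of a type and less RNA per cell cannot be told apart.

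**Figure D1:**
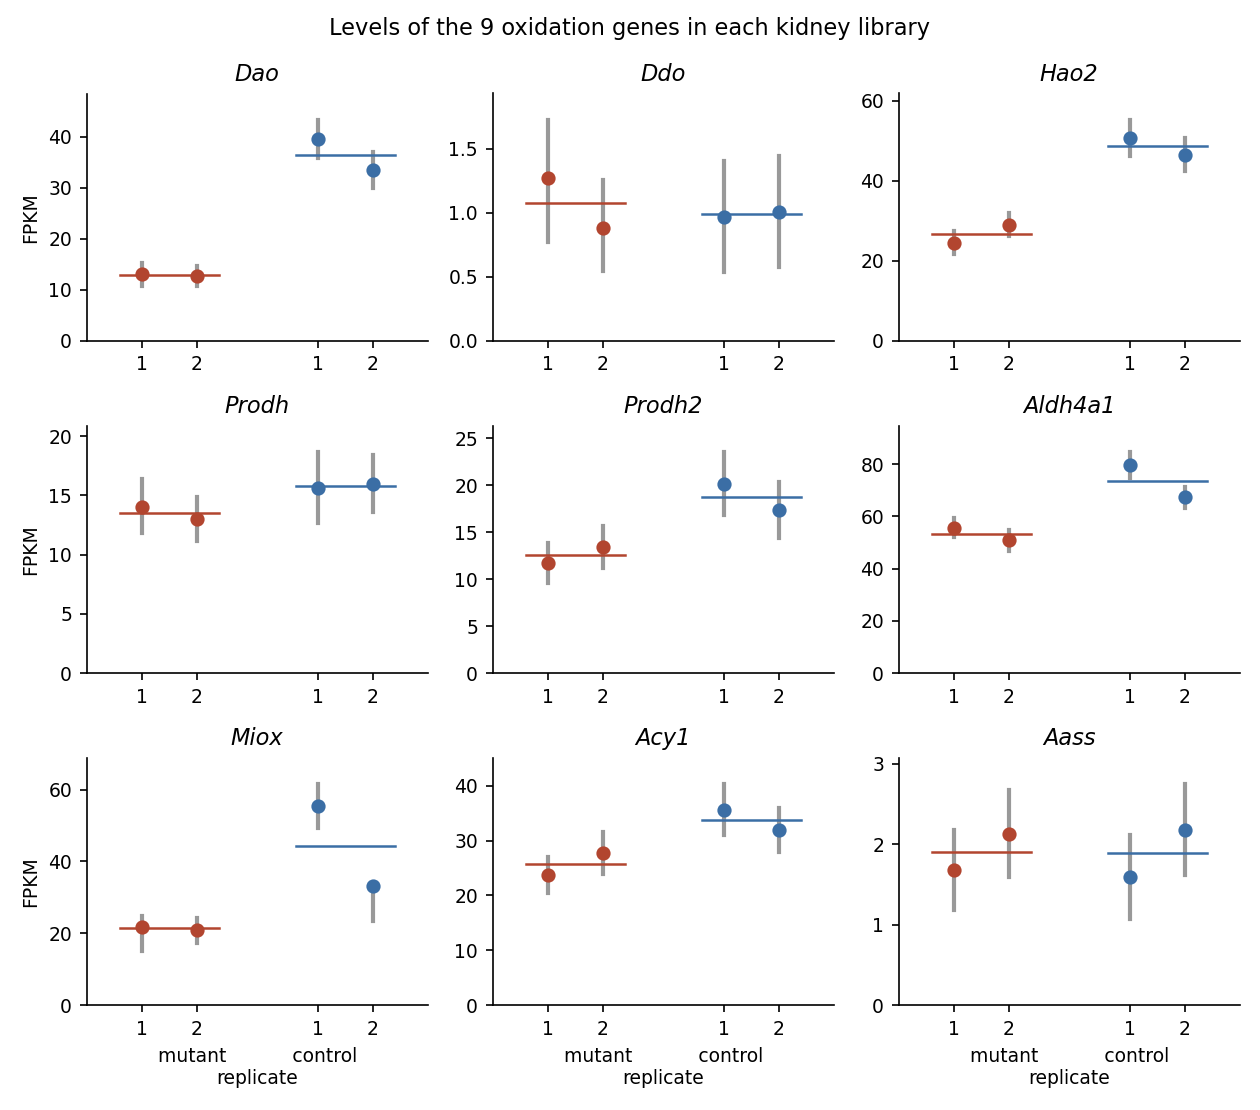
FPKM of each gene in the 2 mutant (red) and 2 control (blue) libraries, with the authors' interval per library (grey) and the group mean (horizontal line); each axis starts at 0. Dao, at 13.1 and 12.8 FPKM in mutant libraries, lies far below its 39.6 and 33.5 FPKM in control libraries, whereas Ddo and Aass overlap between the groups.

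The upstream sequence of each gene was searched for letters that transcription factors of this tissue are known to bind. All 9 genes matched RefSeq promoters (build GRCm38.p6, 250 bases before to 50 after a start), with 11 starts in all, 3 of them of Dao. The HNF4 type CAAAGTCCA was in 0 of the 11 and, on either strand, in 0.475% of the 32851 promoters of the table. Its looser form CAAAGNNCA, which contains it, was also in 0 of the 11, and in 6.36% of all promoters. Only full matches were counted, and stretches that share part of a motif were not searched for. The nuclear receptor hexamer AGGTCA was in 5 of 11, those of Dao (start 2), Ddo, Prodh2, Miox and Aass, and in 16.3% of all promoters. Ddo and Aass, which did not separate by group, thus hold it as well. The HNF1 type GTTAATNAT was in 1 of 11, that of Prodh2, and in 0.801% of all promoters; TATAAA was in 1 of 11, that of Miox, and in 13.6% of all. None of these motifs contains another apart from the HNF4 pair. A match is a description of the letters and not evidence of binding. In the sequences below, capitals mark a match, read on either strand.

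**Figure D2:**
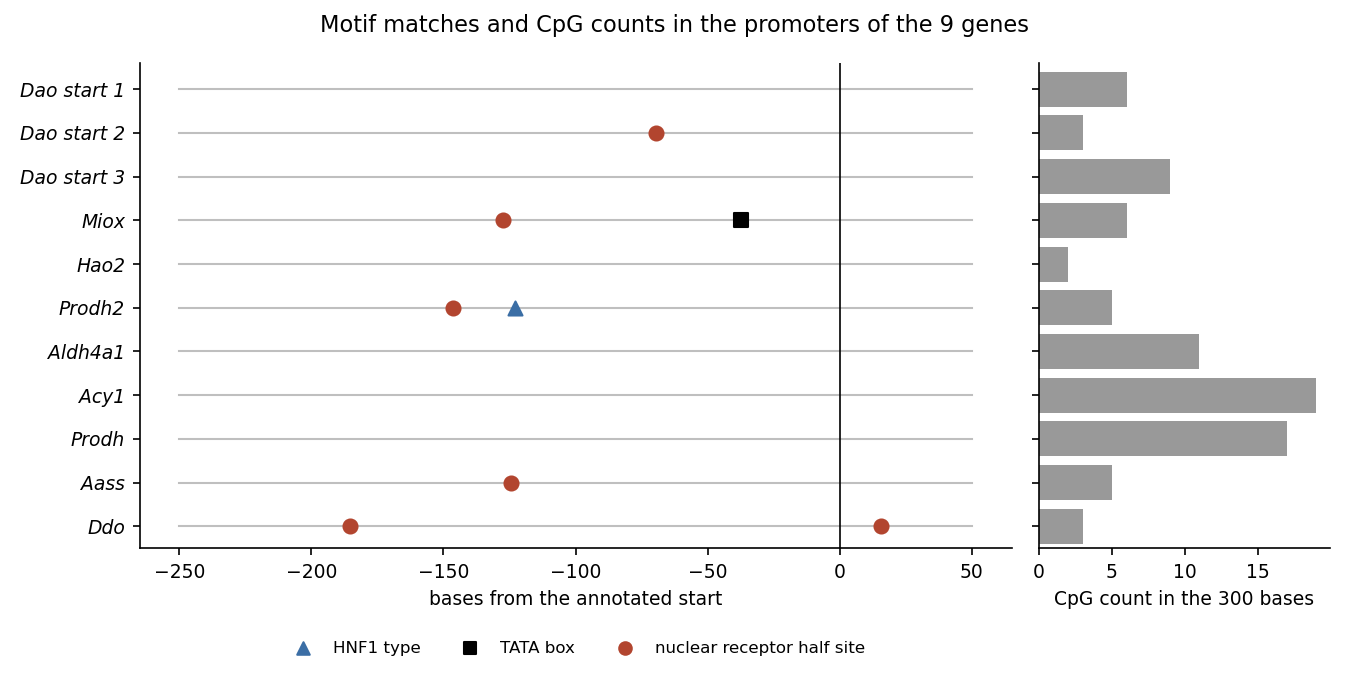
Left, centres of motif matches (symbols; the hexamer AGGTCA is labelled as a nuclear receptor site) in the 300 bases around each annotated start, as the distance in bases from the start; right, the count of CpG dinucleotides in the same 300 bases. Genes run from the most negative log2 change (Dao, top) to the most positive (Ddo, bottom); AGGTCA matches lie in promoters at both ends, and the HNF1 type lies in that of Prodh2.

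Among the oxidases of D-amino acids and 2-hydroxy acids, Dao had the largest difference of the 9 genes and Ddo none beyond its spread. Dao (mm9, chromosome 5, 114453744 to 114475684) had 13.1 and 12.8 FPKM in mutant libraries, against 39.6 and 33.5 FPKM in control libraries. The groups lay far apart, and the highest upper bound of the authors' intervals in mutant libraries, 15.3 FPKM, was below the lowest lower bound in control libraries, 29.97 FPKM. The means were 12.9 ± 0.237 and 36.5 ± 4.36 FPKM (SD, n = 2 per group here and below), or 35.4% of control, with a log2 change of -1.43 (SE 0.12) and an adjusted p of 0.061 with limma. The 30 bases around the AGGTCA match before start 2 of Dao, at chr5:114003800-114003829 of GRCm38.p6 on the plus strand, show it on the opposite strand.
Dao: tgccgaagacttTGACCTtgtgtttcattc

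Ddo (mm9, chromosome 10, 40349817 to 40369737), the partner of Dao that acts on D-aspartate, was close to the lower limit of the test. Its level was 1.27 and 0.884 FPKM in mutant and 0.971 and 1.004 FPKM in control libraries, and the 2 mutant values enclosed the control values. The log2 change was 0.06 (SE 0.19; adjusted p 0.943 with limma). Dao therefore stood at 10.3 and 14.4 times the FPKM of Ddo in mutant libraries, against 40.8 and 33.3 times in control libraries, without overlap (exact permutation p 0.333, two-sided, the smallest possible; 0.444 adjusted over 4 ratios that were chosen after the values were seen).

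Hao2 (mm9, chromosome 3, 98678442 to 98697153), a peroxisomal oxidase of long-chain 2-hydroxy acids, was at 24.5 and 29.05 FPKM in mutant libraries, against 50.8 and 46.5 FPKM in control libraries. Both mutant values lay below both control values, and so did their intervals, with 32.0 FPKM as the highest bound in mutant and 42.4 FPKM as the lowest in control libraries. The mean was 55.1% of control, with a log2 change of -0.84 (SE 0.12; adjusted p 0.143 with limma). Its relative Hao1, the glycolate oxidase of liver, was listed at 0 and 0.0646 FPKM in mutant and at 0 and 0.0733 FPKM in control libraries, so the kidney libraries held Hao2 with almost no Hao1, which was named after its values were seen.

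Of the proline and hydroxyproline enzymes, the hydroxyproline gene Prodh2 had a larger log2 change than the proline gene Prodh. Prodh2 (mm9, chromosome 7, 31278677 to 31298421) had 11.7 and 13.4 FPKM in mutant libraries, against 20.2 and 17.3 FPKM in control libraries. The values did not overlap, but the authors' intervals did, with an upper bound of 15.6 FPKM in mutant replicate 2 and a lower bound of 14.3 FPKM in control replicate 2. The mean was 67.1% of control, with a log2 change of -0.54 (SE 0.13; adjusted p 0.447 with limma). Prodh (mm9, chromosome 16, from 18071819) had 14.1 and 13.03 FPKM in mutant and 15.7 and 15.96 FPKM in control libraries, 85.7% of control, with a log2 change of -0.21 (SE 0.11; adjusted p 0.764). The Prodh values did not overlap either, and their intervals did, with an upper bound of 16.4 FPKM in mutant replicate 1 and a lower bound of 12.7 FPKM in control replicate 1. The Prodh locus ended at 18089283, 18089325, 18089314 and 18089283 in mutant replicates 1 and 2 and control replicates 1 and 2, and the part of this in the FPKM was not tested.

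Prodh2 was at 0.834 and 1.03 times the FPKM of Prodh in mutant libraries and at 1.29 and 1.09 times in control libraries, above Prodh in 1 mutant and in both control libraries. The ratios did not overlap, but an exact two-sided permutation test of 2 against 2 libraries cannot go below 0.333, which it gave (0.444 adjusted over the 4 ratios computed, chosen after the values were seen). The upstream stretches of the pair, outside the RefSeq gene span, are set side by side because Prodh2 holds a AGGTCA match and the HNF1 type while Prodh holds no match. Prodh2 lies at chr7:30493408-30493585 on the plus strand, and Prodh at chr16:18089284-18089440 on the minus strand of GRCm38.p6.
Prodh2: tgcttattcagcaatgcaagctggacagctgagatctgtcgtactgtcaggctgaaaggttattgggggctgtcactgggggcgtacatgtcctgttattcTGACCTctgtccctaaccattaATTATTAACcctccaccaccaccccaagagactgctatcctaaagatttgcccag
Prodh: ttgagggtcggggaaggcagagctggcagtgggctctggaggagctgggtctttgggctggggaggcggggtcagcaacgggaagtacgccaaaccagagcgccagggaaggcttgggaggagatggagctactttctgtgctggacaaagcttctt

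Aldh4a1, the dehydrogenase that turns the product of Prodh into glutamate and that of Prodh2 into hydroxyglutamate, had the highest level of the 9 genes. At mm9 chromosome 4 (139178809 to 139205606 in 3 libraries), it was at 55.6 and 50.8 FPKM in mutant libraries, against 79.5 and 67.2 FPKM in control libraries. Neither the values nor the intervals overlapped, with bounds of 59.5 FPKM in mutant and 63.3 FPKM in control libraries. The mean was 72.5% of control, with a log2 change of -0.45 (SE 0.11; adjusted p 0.441 with limma). The micro-RNA locus Mir7020 lies within it and was listed at 0 in every library. Relative to Prodh and Prodh2 together, Aldh4a1 stood at 2.16 and 1.92 times in mutant and 2.22 and 2.02 times in control libraries, and these ratios overlapped (exact permutation p 0.667, two-sided; 0.667 adjusted over the 4 ratios). Dao relative to Aldh4a1 was at 0.235 and 0.251 in mutant and 0.498 and 0.498 in control libraries, without overlap (exact permutation p 0.333, the smallest possible; 0.444 adjusted over the 4 ratios).

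**Figure D3:**
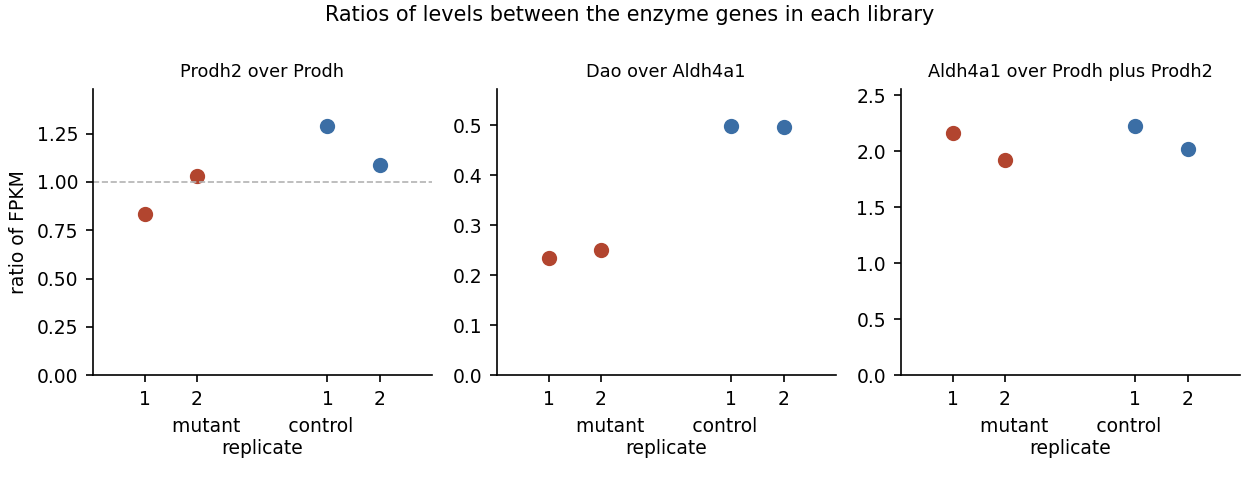
Ratio of FPKM between enzyme genes in each mutant (red) and control (blue) library; axes start at 0 and the dashed line in the first panel marks equal levels. Prodh2 over Prodh and Dao over Aldh4a1 were lower in both mutant libraries, whereas Aldh4a1 over the sum of Prodh and Prodh2 overlapped between the groups.

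Miox (mm9, chromosome 15, 89164904 to 89167438), which converts myo-inositol to glucuronate, had the widest spread in control libraries. It was at 21.9 and 20.9 FPKM in mutant libraries, close together, against 55.4 and 33.1 FPKM in control libraries. The mean was 48.4% of control and the log2 change -0.97 (SE 0.26; adjusted p 0.474 with limma). Its size depends on the control libraries, since the log2 change was -0.61 without control replicate 1 and -1.33 without control replicate 2. With 2 control libraries these shifts are equal in size, so they do not single out either library. In control replicate 2 the authors' interval ran from 23.5 to 33.3 FPKM, so that its estimate lies at the upper bound. That interval overlapped those of mutant replicates 1 and 2, which reached 24.7 and 24.4 FPKM. Miox was the member with a TATAAA match, 40 bases before its start, and a AGGTCA match 130 bases before it, at chr15:89334223-89334472 of GRCm38.p6 on the plus strand.
Miox: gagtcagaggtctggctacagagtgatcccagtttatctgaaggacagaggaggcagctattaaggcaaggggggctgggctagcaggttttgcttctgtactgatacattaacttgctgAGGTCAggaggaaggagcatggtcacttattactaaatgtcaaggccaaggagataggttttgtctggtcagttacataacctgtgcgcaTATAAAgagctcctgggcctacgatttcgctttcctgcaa

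Acy1 (mm9, chromosome 9, 106335312 to 106340567 in control libraries), an aminoacylase that frees amino acids from their N-acetyl form, was at 23.8 and 27.7 FPKM in mutant libraries, against 35.6 and 31.9 FPKM in control libraries. The values did not overlap, but the intervals did, with an upper bound of 31.5 FPKM in mutant replicate 2 and a lower bound of 27.9 FPKM in control replicate 2. The mean was 76.2% of control, with a log2 change of -0.38 (SE 0.12; adjusted p 0.576 with limma). In mutant libraries the locus was longer, from 106335312 to 106340744 and from 106335232 to 106340749, and the part of this in the FPKM was not tested.

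Aass (mm9, chromosome 6, 23022173 to 23082986), the enzyme with both the reductase and the dehydrogenase of the saccharopine route of lysine, was at 1.68 and 2.12 FPKM in mutant and 1.59 and 2.18 FPKM in control libraries. The groups overlapped fully, at 101% of control. The log2 change was 0.01 (SE 0.20; adjusted p 0.990 with limma), and it was negative without control replicate 1 or without mutant replicate 2 and after scaling the libraries to a common median or distribution. The upstream stretch of Aass, at chr6:23132987-23133236 of GRCm38.p6 on the minus strand, is shown as that of a member whose level overlapped between groups while it holds a AGGTCA match.
Aass: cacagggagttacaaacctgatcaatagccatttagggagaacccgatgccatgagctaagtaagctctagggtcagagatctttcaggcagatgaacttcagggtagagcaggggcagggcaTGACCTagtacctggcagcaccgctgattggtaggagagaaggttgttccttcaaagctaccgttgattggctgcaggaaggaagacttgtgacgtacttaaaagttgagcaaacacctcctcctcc

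The order of the levels differed between the groups. In mutant libraries it ran Aldh4a1 (53.2 ± 3.42 FPKM), Hao2 (26.8 ± 3.21), Acy1 (25.7 ± 2.79), Miox (21.4 ± 0.727), Prodh (13.5 ± 0.736), Dao (12.9 ± 0.237), Prodh2 (12.6 ± 1.199), Aass (1.90 ± 0.314) and Ddo (1.08 ± 0.271). Hao2 and Acy1 overlapped there, as did Prodh, Dao and Prodh2. In control libraries it ran Aldh4a1 (73.4 ± 8.71 FPKM), Hao2 (48.6 ± 3.02), Miox (44.2 ± 15.8), Dao (36.5 ± 4.36), Acy1 (33.7 ± 2.67), Prodh2 (18.7 ± 1.995), Prodh (15.8 ± 0.213), Aass (1.88 ± 0.415) and Ddo (0.987 ± 0.0233). Miox overlapped Hao2, Dao and Acy1, and Dao overlapped Acy1, whereas Prodh2 lay above Prodh in both control libraries. Dao thus stood level with the proline dehydrogenases in mutant kidneys and above both in control kidneys.

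Each library was left out in turn to see how far single libraries carry these differences. In these 4 fits the log2 changes ran from -1.54 to -1.31 for Dao, -0.96 to -0.72 for Hao2 and -1.33 to -0.61 for Miox. They ran from -0.64 to -0.44 for Prodh2, -0.57 to -0.33 for Aldh4a1 and -0.49 to -0.27 for Acy1. A group left with 1 library shows no scatter of its own, so a p from these fits leans on the scatter of the other group. For Miox without a control library, that is the mutant pair, which lay close together while the controls lay far apart. Of the members tested, 4 of 8 were lower at an unadjusted p under 0.05 without mutant replicate 1, 5 of 9 without mutant replicate 2 or without control replicate 1, and 6 of 8 without control replicate 2. The share of all genes lower at that p was 3.1%, 3.33%, 5.49% and 8.4% in the fits without mutant replicate 1, mutant replicate 2, control replicate 1 and control replicate 2.

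**Figure D4:**
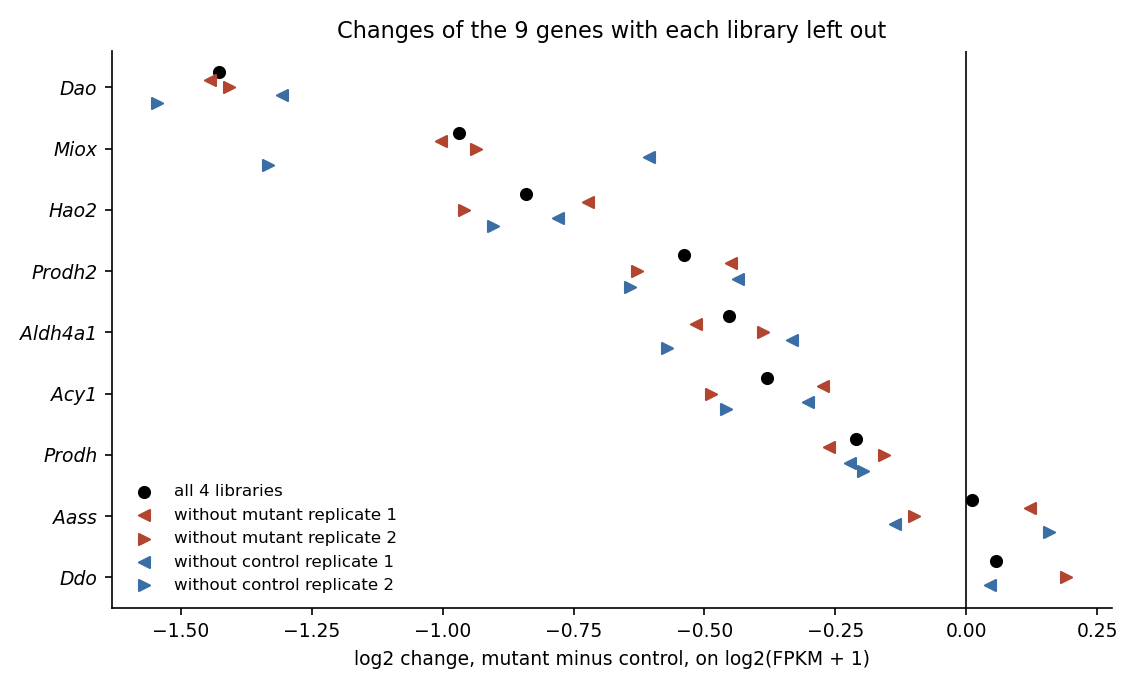
Log2 change, mutant minus control, on log2(FPKM + 1), for each gene with all 4 libraries (black) and with 1 mutant (red) or 1 control (blue) library left out; Ddo has no point where it missed the filter. Miox moves the most, from -1.33 to -0.61, and the points of Dao stay between -1.54 and -1.31.

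Other genes of the same pathways, taken as 5 lists, were 51 in number, of which 48 were matched in the tables and 45 tested. Of these 45, 1 passed an adjusted p under 0.05, Aadat, which was lower; at an unadjusted p under 0.05, 14 were lower and 0 higher, and the median log2 change was -0.13. Over all genes tested, 0.158% passed the adjusted p, 4.57% were lower and 2.67% higher at the unadjusted p, and the median was 0.02. In 26 of the 45 both mutant libraries lay below both control libraries, and in 3 both lay above, against 17.1% below and 22.7% above over all genes tested.

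In the list of D-amino acid and related oxidation, 3 of 6 tested genes were lower at an unadjusted p under 0.05 and 0 passed after adjustment. Pipox, a peroxisomal oxidase of sarcosine and pipecolate, was at 5.48 and 6.76 FPKM in mutant libraries, against 15.7 and 18.4 FPKM in control libraries, 35.9% of control (log2 change -1.34, SE 0.16). That share is close to that of Dao. The mitochondrial dehydrogenases of choline breakdown Dmgdh (51.4% of control) and Sardh (72.3%) were lower as well, and Dmgdh missed the unadjusted p without control replicate 1 (log2 change -0.46) and without either mutant library. The Dmgdh locus overlaps AW495222, listed at 0. Cat, the catalase that removes the peroxide these oxidases make, was at 40.1 and 41.4 FPKM in mutant and 42.4 and 42.3 FPKM in control libraries, 96.3% of control, and was chosen after its values were seen.

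For proline, hydroxyproline and glyoxylate, 4 of 13 tested genes were lower at an unadjusted p under 0.05 and 0 after adjustment. Of the genes for making proline, Aldh18a1, which makes the intermediate shared by synthesis and breakdown, was at 94.6% of control, and the reductase genes Pycr1 and Pycrl were at 70.9% and 97.8%. The groups overlapped for these 3 genes, which were named after their values were seen. Agxt2, a mitochondrial aminotransferase that uses glyoxylate, was at 3.37 and 4.36 FPKM in mutant libraries, against 11.9 and 16.1 FPKM in control libraries (27.6% of control). Glyctk, glycerate kinase, was at 4.68 and 5.47 FPKM in mutant libraries, against 34.1 and 15.6 FPKM in control libraries, a log2 change of -1.99 (SE 0.39); its locus overlaps Mir135a-1, listed at 0. Hoga1, the aldolase that ends hydroxyproline breakdown, was at 33.9 and 28.3 FPKM in mutant libraries, against 90.2 and 36.0 FPKM in control libraries (log2 change -0.86, SE 0.45, adjusted p 0.764 with limma; chosen after its values were seen, and overlapped by 4933411K16Rik, with which reads may be shared). Control replicate 1 was far above control replicate 2 for Glyctk, Hoga1 and Miox alike. Grhpr, which reduces glyoxylate, was at 81.9% of control, and missed the unadjusted p without control replicate 2 and without mutant replicate 2.

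For inositol and glucuronate, 3 of 12 tested genes were lower at an unadjusted p under 0.05 and 0 after adjustment. Xylb, xylulokinase, near the end of the glucuronate route that Miox feeds, was at 6.40 and 8.24 FPKM in mutant libraries, against 23.3 and 14.4 FPKM in control libraries (38.8% of control). Slc5a11, a sodium-coupled inositol carrier, was at 1.79 and 2.44 FPKM in mutant libraries, against 5.15 and 3.67 FPKM in control libraries (47.9%), and missed the unadjusted p without control replicate 1 and without mutant replicate 1. Sord, sorbitol dehydrogenase, was at 59.8% of control. The genes that make inositol did not separate, with the synthase Isyna1 at 93.0% and the phosphatase Impa2 at 99.7% of control, both named after their values were seen.

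For lysine breakdown, 1 of 8 tested genes passed. Aadat, the aminoadipate aminotransferase downstream of Aass, fell to 46.6 and 50.1 FPKM in mutant libraries, against 131 and 148 FPKM in control libraries, with a log2 change of -1.51 (SE 0.09; adjusted p 0.034 with limma). The call was lost when any 1 library was left out (adjusted p from 0.059 to 0.176) and with the replicate number as a block (0.0905), and also without the filter (0.0600) or the mean-variance trend (0.0727). In control replicate 1 unnamed loci overlap it, and the part of this in its FPKM was not tested. Aass and Aadat, which act in this order with a dehydrogenase between them, thus stood at 101% and 34.7% of control. That dehydrogenase gene, Aldh7a1, named after its values were seen, was at 64.9% of control (log2 change -0.56, SE 0.27). Its locus overlaps Phax. In 3 of the 8 genes both mutant libraries lay below both control libraries and in 3 above, against 17.1% and 22.7% of all genes tested. The median log2 change of the list was 0.03, against 0.02 for all genes tested.

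For N-acyl amino acids, 3 of 6 tested genes were lower at an unadjusted p under 0.05 and 0 after adjustment. Acy3, the aminoacylase of aromatic and mercapturic acetyl amino acids, was at 36.0 and 35.8 FPKM in mutant libraries, against 65.0 and 77.6 FPKM in control libraries (50.3% of control, adjusted p 0.098 with limma). Aspa, which splits N-acetylaspartate, was at 8.20 and 12.5 FPKM in mutant libraries, against 21.98 and 45.2 FPKM in control libraries (30.7%). Cml1, of a family of acetyltransferase genes with close copies to which reads could be split, was at 22.4 and 26.3 FPKM in mutant libraries, against 83.5 and 68.5 FPKM in control libraries (32.0%, adjusted p 0.071 with limma). Acy1, at 76.2% of control, lay nearer to its control level than these, which were named for their large changes. Apeh and Nat8l of the same list, named after their values were seen, lay nearer still, at 95.4% and 98.5%.

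**Figure D5:**
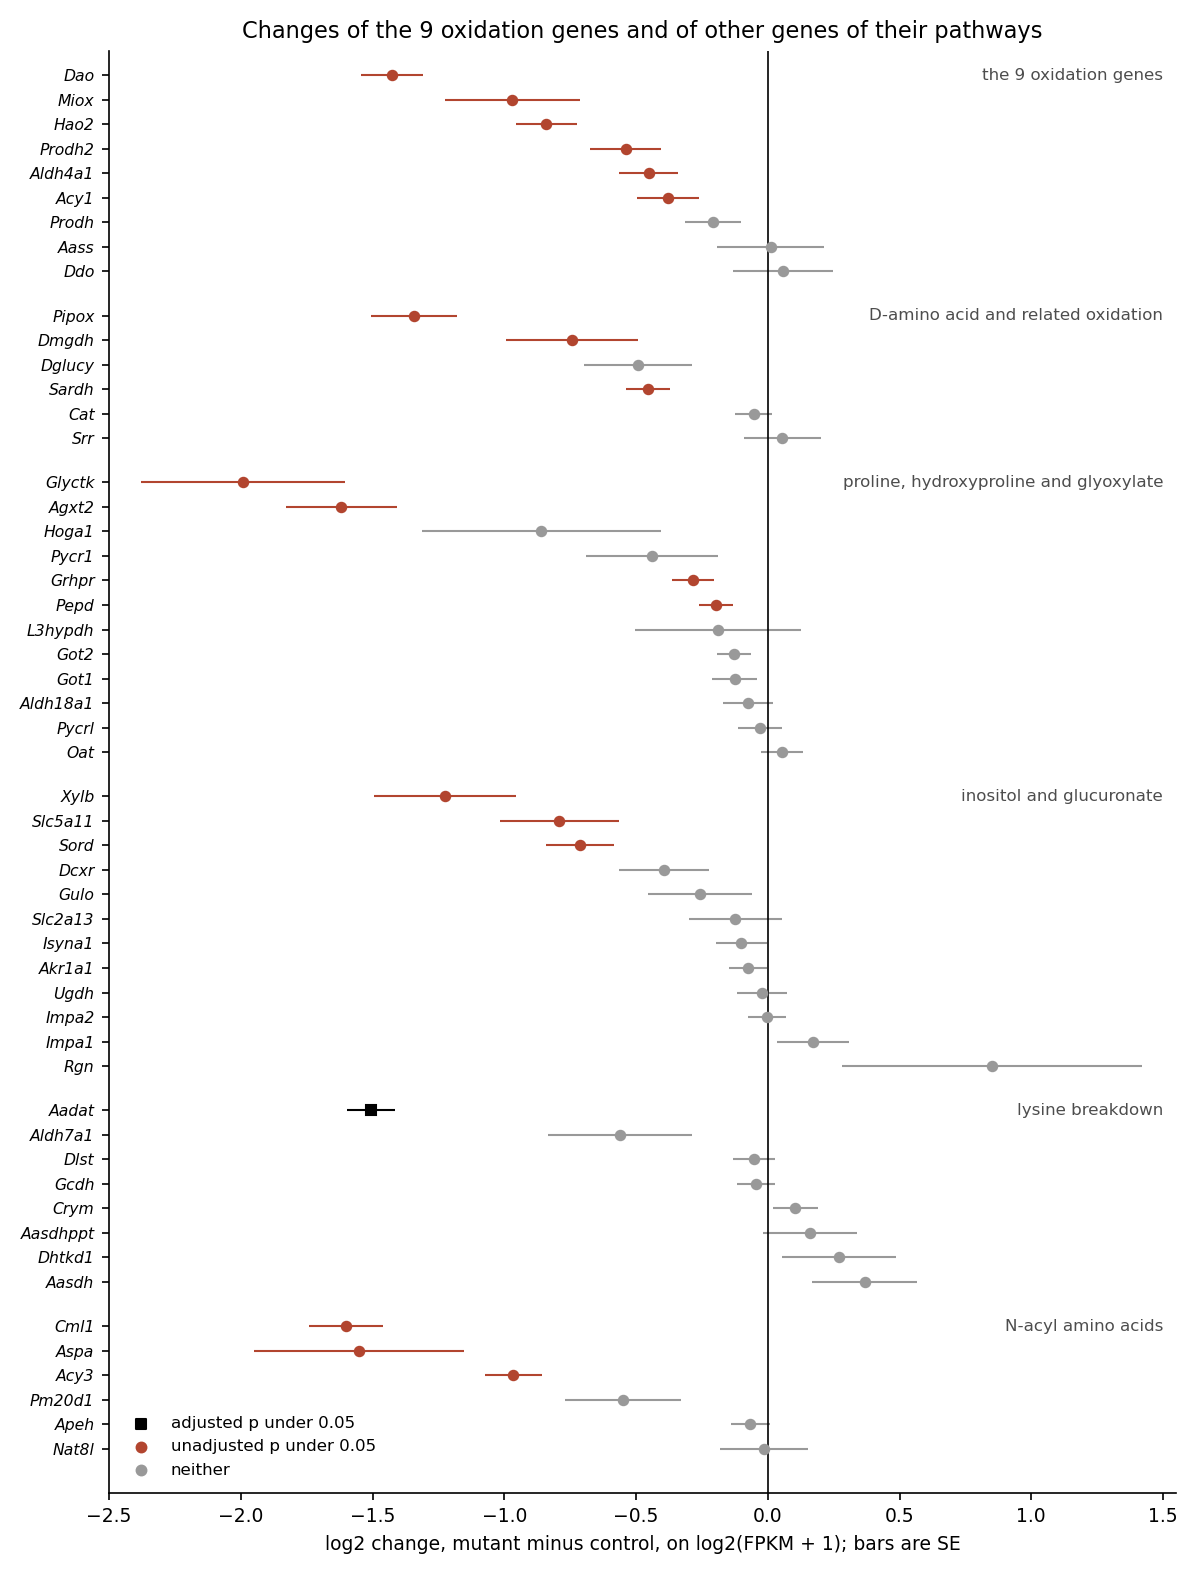
Log2 change, mutant minus control, on log2(FPKM + 1) with SE, for the 9 genes and for 44 of the 45 tested genes of 5 related lists; colour and shape give the p from limma. Aadat is the gene past an adjusted p under 0.05, and Rgn has the most positive value, 0.85, with a wide SE.

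Markers of cell types were read beside these genes. All 8 proximal tubule markers were lower in both mutant libraries than in both control libraries. With limma, 7 of them were lower at an unadjusted p under 0.05 and 0 after adjustment, with a median log2 change of -1.32. Over all genes tested, 17.1% were lower in both mutant libraries and the median was 0.02. At the unadjusted p 4.57% were lower, and 0.113% after adjustment. The FPKM of these 8 markers summed to 114 and 120 in mutant and 345 and 264 in control libraries. Control replicate 1 was the highest in that sum, as it was for Dao, Hao2, Prodh2, Aldh4a1, Miox and Acy1. Control replicate 2 was the higher control for the marker Cubn, named after its values were seen (13.6 and 16.9 FPKM in control replicates 1 and 2). The same held for Prodh (15.7 and 15.96 FPKM) and for pathway genes such as Aadat and Pipox. The part of proximal tubule cells in the differences above was not tested.

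Over all genes tested, 4.57% were lower and 2.67% higher at an unadjusted p under 0.05, and 0.158% passed after adjustment. Markers of the other nephron segments and of stroma, endothelium and macrophages gave 0 genes at an unadjusted p under 0.05 or after adjustment. Their most abundant genes were Six2 of progenitors (58.4 and 55.9 FPKM in mutant, 67.0 and 49.9 FPKM in control libraries), Podxl of podocytes (80.5 and 75.05 against 78.3 and 79.9), Slc12a1 of the loop of Henle (70.8 and 76.2 against 86.4 and 70.0), Calb1 of the distal tubule (117 and 67.1 against 48.9 and 59.5) and Aqp2 of the collecting duct (165 and 146 against 187 and 158). Outside the nephron they were Col3a1 of stroma (125 and 109 in mutant, 138 and 123 FPKM in control libraries), Egfl7 of endothelium (90.1 and 104 against 81.7 and 97.2) and C1qc of macrophages (23.8 and 29.2 against 22.1 and 20.4). Podocyte sums were 167 and 160 FPKM in mutant and 167 and 161 FPKM in control libraries. Of neurons and glia, which express Prodh and Ddo, Stmn2 was highest, at 4.18 and 6.52 FPKM in mutant and 3.44 and 4.80 FPKM in control libraries. Cyp11b1 and Cyp21a1 of the adrenal cortex were listed at 0 in every library, and Star in 3 of 4; the most abundant of that list, Cyp11a1, stayed at 0.692 FPKM or below.

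Hepatocyte genes were highest in mutant replicate 2 for all 8 markers but Ttr. Several of the 9 genes are known to be expressed in liver as well. Of the 9, Hao2, Prodh2, Acy1 and Aass were higher in mutant replicate 2 than in mutant replicate 1. The others were lower there, such as Aldh4a1 (55.6 and 50.8 FPKM in mutant replicates 1 and 2) and Prodh (14.1 and 13.03 FPKM). The 8 hepatocyte markers, with Afp the most abundant, summed to 48.3 and 109 FPKM in mutant and 51.7 and 60.2 FPKM in control libraries. Of the 7 tested, 4 were higher in both mutant libraries, against 22.7% of all genes tested. With limma, 0 of the 7 reached an unadjusted p under 0.05, against 4.57% lower and 2.67% higher of all genes tested. Alb was at 1.11 and 21.1 FPKM in mutant and 0.295 and 1.09 FPKM in control libraries, and Apoa2 was listed at 0 in control replicate 1. Ttr went the other way, at 5.51 and 9.75 FPKM in mutant and 14.7 and 10.9 FPKM in control libraries; Alb and Ttr were chosen after their values were seen. Rgn, a gluconolactonase gene of the inositol and glucuronate list, chosen after its values were seen, was at 5.98 and 20.9 FPKM in mutant and 5.56 and 6.15 FPKM in control libraries, high in the same mutant replicate 2. Agxt, a liver enzyme of glyoxylate, was listed at 0 or below 0.1 FPKM in every library, at 0 and 0.0874 FPKM in mutant and 0 and 0.0992 FPKM in control libraries, and was also named after its values were seen. Without mutant replicate 2, the log2 changes were -0.96 for Hao2, -0.63 for Prodh2 and -0.49 for Acy1, and that of Aass turned to -0.10 from 0.01 with all libraries. Those of Aldh4a1 and Prodh were -0.39 and -0.16 without it, less negative than with all libraries. The part of liver transcripts in these levels was not tested.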

How the data were processed

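Whole kidneys of mouse embryos were profiled by RNA sequencing after poly(A) selection, per the labels' protocols. FPKM values and the bounds of their intervals were computed by the authors and deposited as 1 table per library. Build mm9 and the tools Cufflinks 2.1.1, TopHat2 2.0.11, SAMtools 0.1.19 and Bowtie 1.0.0 are named in the submitters' processing notes; annotation, options and strand are not given in the sources used. Locus bounds differ between the tables for some genes.

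Rows were joined by gene symbol and FPKM was summed over rows that share one. Of 23852 names, 22761 were in all 4 tables, and 99 with a row not marked OK were left out. The 13287 genes that reached 1 FPKM in 2 or more libraries entered the test on log2(FPKM + 1), which understates changes at low levels, with limma 3.58.1 in R 4.3.3 (lmFit, then eBayes with a mean-variance trend), two-sided, with Benjamini-Hochberg adjustment over all genes tested and a threshold of 0.05. A percentage of control divides mean FPKM of mutant by that of control libraries. Ddo passed the filter through 1 library of each group. A group reduced to 1 library was assumed to vary like the other. The fit was tested on simulated data of 13287 genes and recovered 37 of 100 genes changed by 1 and 95 of 100 changed by 2 on the log2 scale, with 5 unchanged genes called. The changed genes were drawn from levels above those of Ddo and Aass, and each gene was given the smoothed scatter of its level. The recovery therefore does not cover Ddo, Aass or genes with more scatter than others of their level.

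The 9 genes, the pathway and marker lists and the tests were chosen with earlier results of these data known. Named were Hnf4a, the 9 genes, any pathway gene past the adjusted threshold, up to 3 per list with the largest change at an unadjusted p under 0.05 without overlap, and the most abundant gene of each marker list and any at 0; genes outside this rule are said to be so. Of the 45 tested, 1 pathway gene enters the counts but is not reported here. Slc5a3, Hykk, Nat8 and Hsd3b1 were not matched by single symbol in every table. There were 13 alternatives: other pseudocounts, filters and scalings, no variance trend, 1 row per symbol, a block for the replicate number, and fits lacking 1 library. Promoter sequences are from RefSeq, build GRCm38.p6, and coordinates of that build were not mixed with those of mm9.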

Additional observations from a re-analysis of the deposited data

How the results depend on the processing

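The log2 changes of Dao, Hao2, Prodh, Prodh2, Aldh4a1, Miox and Acy1 were negative under all 13 alternatives, and none of the 9 genes passed an adjusted p under 0.05 in any, the nearest being Dao, from 0.0544 to 0.176. Ddo stayed positive in the 10 alternatives that tested it. Aass turned negative with libraries scaled to a common median (-0.0093) or by quantiles (-0.016), and ranged from -0.14 to 0.16 with 1 library left out (-0.10 without mutant replicate 2). Without 1 library, the median of the members tested ranged from -0.61 (without control replicate 2, over 8 genes, since Ddo missed the filter) to -0.33 (without control replicate 1, over all 9; the cause was not tested); with all libraries it was -0.45 over 9 genes, and -0.50 over the 8 at 1 FPKM or more in every library. All genes past an adjusted p under 0.05 were 21, but 10 without the filter, 11 without the mean-variance trend and from 0 to 21 without 1 library. The count was 0 without control replicate 1 (721 lower and 293 higher at an unadjusted p under 0.05 with limma) and without control replicate 2 (1103 and 1192). With the replicate block 6 genes passed. The labels share only replicate numbers, and same-numbered deviations from the group means correlated at 0.146 over 13287 genes. The 2 pairs are too few to show pairing. The block left 6 of the 9 genes and 14 of the 45 pathway genes lower at an unadjusted p under 0.05 with limma. Of all genes tested, 4.59% were lower in that fit. Beside changing the count of all genes, the block ended the call of Aadat. The members and pathway counts stayed within 1.5 times under every alternative. Depth is unknown, so Ddo and Aass, near 1 and 2 FPKM, limit what could be detected for them.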

Other observations

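Promoter composition, looked at after the values were seen, varied widely among the 9 genes. CpG dinucleotides numbered 19 in the 300 bases around the start of Acy1, 17 in Prodh and 11 in Aldh4a1, against a median of 7 over all promoters of the table; these genes had 76.2%, 85.7% and 72.5% of the control mean in mutant libraries. The count was 2 in Hao2, 5 in Prodh2, 6 in Miox and 3 to 9 at the starts of Dao, whose levels were 55.1%, 67.1%, 48.4% and 35.4% of control. Ddo and Aass, which overlapped between groups at low levels, had 3 and 5. GC content ran from 32.3% in Hao2 to 68.3% in Acy1, with a median of 52.7% over all promoters. With 9 genes chosen by name these values are a description, and no relation was tested.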
